A study of Mus musculus with 18 samples.

Results

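Inguinal white adipose tissue, a subcutaneous fat depot of the mouse, was compared between tumour-bearing and control animals 7 days after injection, the stage the submitters call pre-cachexia. The comparison holds 9 of the series' 18 RNA-seq samples, chosen as every library of the day 7 table: 5 from mice injected under the skin with LLC cells and 4 from mice injected with PBS. LLC is Lewis lung carcinoma, a transplantable mouse tumour line that causes wasting of fat and muscle, and PBS is the saline vehicle. All animals were male C57BL/6J mice, so tumour and host share a strain background, and neither an age nor a further treatment is given. The other 9 samples are the day 21 groups and enter only where the tumour effect is compared between days. The labels name no animals, so it is not known whether each library is 1 mouse, and every p-value below reflects the variation among libraries, which may be technical. RNA of bulk tissue was sequenced, so fewer cells of a type cannot be told apart from less RNA per cell.

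White fat stores triglyceride and secretes hormones such as leptin, and in the inguinal depot it can acquire heat-producing beige adipocytes that burn fuel through Ucp1, the uncoupling protein of the inner mitochondrial membrane. The tissue also holds fibroblast-like progenitors, blood vessels, nerves and immune cells. Progenitors respond to Wnt, Hedgehog, FGF and retinoid signals, which are known for restraining or steering the formation of adipocytes, while resident immune cells and adipocytes respond to interferons, cytokines and chemokines.

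The 9 libraries held 14566155 to 18969387 counts, 15533 to 15923 genes with a count and 9.81 to 17.3% mitochondrially encoded counts. The labelled tissue fitted its markers: Adipoq, which encodes the fat hormone adiponectin, averaged 3208 TPM in PBS and 3081 TPM in LLC, and all 20 adipocyte markers were measurable. Libraries numbered 3 in both groups stood apart through skeletal muscle genes, whose summed level ran from 16.5 to 9558 CPM (counts scaled to library size) in PBS and from 10.3 to 2415 CPM in LLC. The score of a gene list is the mean over its members of log2 CPM minus each member's mean over the 9 libraries, and for muscle genes it was -1.31, -1.53, 6.13 and -1.77 in the PBS libraries and -1.35, -1.91, 3.67, -0.11 and -1.81 in the LLC libraries. The muscle actin Acta1 shows what this does to a fold change: it was at 26.7, 10.9, 1420 and 11.9 CPM in the PBS libraries and 20.8, 5.30, 394, 19 and 8.25 CPM in the LLC libraries. Its log2 fold change was -2.04 ± 1.60, and without PBS library 3 the value was 2.44, with the opposite sign. The median of the 5 muscle genes tested went from -2.40 to 0.26 without both libraries numbered 3, so no direction is given for muscle. LLC libraries 2 and 4 carried the highest interferon scores, LLC library 5 the lowest score of progenitor genes, and LLC library 1 lay nearest the controls for many lists. No 2 libraries of a group agreed within sampling noise.

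Ucp1 was the gene that rose in LLC fat at the threshold of an adjusted p under 0.05 in edgeR's quasi-likelihood test. Among 13445 genes tested it was the only call, or 0.00744% of them. Its level was 0.862, 0.910, 0.999 and 0.0594 CPM in the PBS libraries and 12.4, 20.4, 35.8, 26 and 42.8 CPM in the LLC libraries. Every LLC library lay above every PBS library, the means were 0.708 ± 0.436 and 27.5 ± 12.1 CPM (SD, n = 4 and n = 5), and the log2 fold change was 5.28 ± 0.51 (SE) with an edgeR adjusted p of 0.00802. Ucp1 lies at chr8:83290352-83298452, plus strand, on GRCm38. Taken as a single value, the exact two-sided permutation test gave p = 0.0159, the smallest that 4 against 5 libraries allows. The edgeR call was lost when PBS library 1, 2 or 3 was left out (adjusted p = 0.0988, 0.0933 and 0.0530), without both libraries numbered 3 (0.144) and without LLC libraries 2 and 4 (0.0731). It was also lost in limma-voom (0.438) and in 1 edgeR fit of all 18 libraries (1.00). The log2 fold change stayed between 4.88 and 5.49 when single libraries were left out.

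DESeq2 called more genes from the same counts: 62 higher in LLC, or 0.461% of the genes tested, and 18 lower, or 0.134%. At an unadjusted edgeR p under 0.05, 654 genes were higher (4.86%) and 490 lower (3.64%). The groups did not overlap for 162 genes higher in LLC (1.20%) and for 172 lower (1.28%). The median log2 fold change over all genes tested was 0.00. Of all genes tested, 6874 (51.1%) had a log2 fold change above 0 and 6571 did not. The shares and the median given here are the base for each list below. In what follows, a gene is said to differ by DESeq2 where its adjusted p there is under 0.05, and every such gene other than Ucp1 missed the edgeR threshold, with adjusted p-values from 0.200 upward. The authors' deposited table lists 46 genes at an FDR under 0.05, of which 45 are higher and 1, Dmrt2, is lower. Of those 46, 36 are also DESeq2 calls here, which is 78.3% of the authors' list and 45.0% of the 80 DESeq2 calls.

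Thermogenic genes were higher as a list. Of 26 thermogenic genes tested, 23 were higher, with a median log2 fold change of 0.53, or 0.28 without LLC library 5. At an unadjusted p under 0.05, 13 were higher and 1 lower, against 4.86 and 3.64% of all genes. DESeq2 called 5 as higher, against 0.461% of all genes. By role, 16 of 16 effectors and 7 of 10 regulators were higher. Otop1, a proton channel of the otopetrin family and the gene named in the series title, stood at 9.68, 5.89, 9.06 and 5.70 CPM in the PBS libraries and 18, 14.4, 13.4, 18.1 and 19.6 CPM in the LLC libraries. Its groups were fully separate, at 7.58 ± 2.08 against 16.7 ± 2.68 CPM, and its log2 fold change was 1.14 ± 0.19 with a DESeq2 adjusted p of 4.53e-05. The exact permutation test of Otop1 alone again gave the smallest possible p, 0.0159. Any gene with fully separate groups gives that p, so for Ucp1 and Otop1 it only restates the separation. Plin5, which is outside the thermogenic list, is a coat protein that ties lipid droplets to mitochondria. It was at 9.15, 7.58, 11.6 and 6.42 CPM in the PBS libraries and 18.1, 12.3, 18.2, 20.1 and 25.3 CPM in the LLC libraries. Its lowest LLC library was just above the highest control. Acot11, an acyl-CoA thioesterase abundant in brown fat, had a log2 fold change of 1.64 ± 0.31 and ranged from 3.58 to 7.68 CPM in PBS and 8.85 to 23.1 CPM in LLC. Elovl3, a fatty acid elongase of cold-exposed brown fat, was near the limit of detection in the controls and ranged from 0 to 0.312 CPM in PBS and 0.628 to 2.73 CPM in LLC. Dio2, which activates thyroid hormone, ran from 0.789 to 2.81 CPM in PBS and 2.95 to 12.2 CPM in LLC. The adhesion receptor Cxadr, also outside the list, ran from 2.44 to 4.05 CPM in PBS and 4.37 to 13.7 CPM in LLC. In each of these genes the groups did not overlap. DESeq2 called all 4 of Plin5, Acot11, Elovl3 and Dio2, with adjusted p-values of 0.000932, 0.000161, 0.000589 and 0.00646.

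Ketone body and glycerol metabolism had 8 of 12 members higher, 3 higher and 1 lower at an unadjusted p under 0.05, and a median of 0.06. Gk, glycerol kinase, was at 7.69, 7.16, 6.93 and 7.54 CPM in the PBS libraries and 9.85, 12.2, 8.60, 9.08 and 14.4 CPM in the LLC libraries, and its groups did not overlap with a log2 fold change of 0.56 ± 0.16. Pdk4, which shuts pyruvate out of the mitochondrion, had a log2 fold change of 0.90 ± 0.28 and did not pass DESeq2. Angptl4 and Pck1, both known as fasting-induced genes, shared a low PBS library 3 and a high LLC library 5. Angptl4, an inhibitor of lipoprotein lipase, was at 311, 224, 128 and 251 CPM in the PBS libraries and 321, 334, 322, 261 and 523 CPM in the LLC libraries, and Pck1, which makes the glycerol backbone of triglyceride, ranged from 518 to 1427 CPM in PBS and 1367 to 2336 CPM in LLC. Txnip, an inhibitor of glucose uptake, ranged from 669.5 to 1005 CPM in PBS and 1046 to 1481 CPM in LLC and passed DESeq2 at 0.0447. The list of adipokines and secreted regulators was split, with 13 of 28 higher, 2 higher and 6 lower at an unadjusted p under 0.05, and a median of -0.05. Leptin (Lep) and resistin (Retn), hormones of the white adipocyte, had log2 fold changes of -0.33 ± 0.14 and -0.21 ± 0.09 and did not pass DESeq2.

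**Figure D1:**
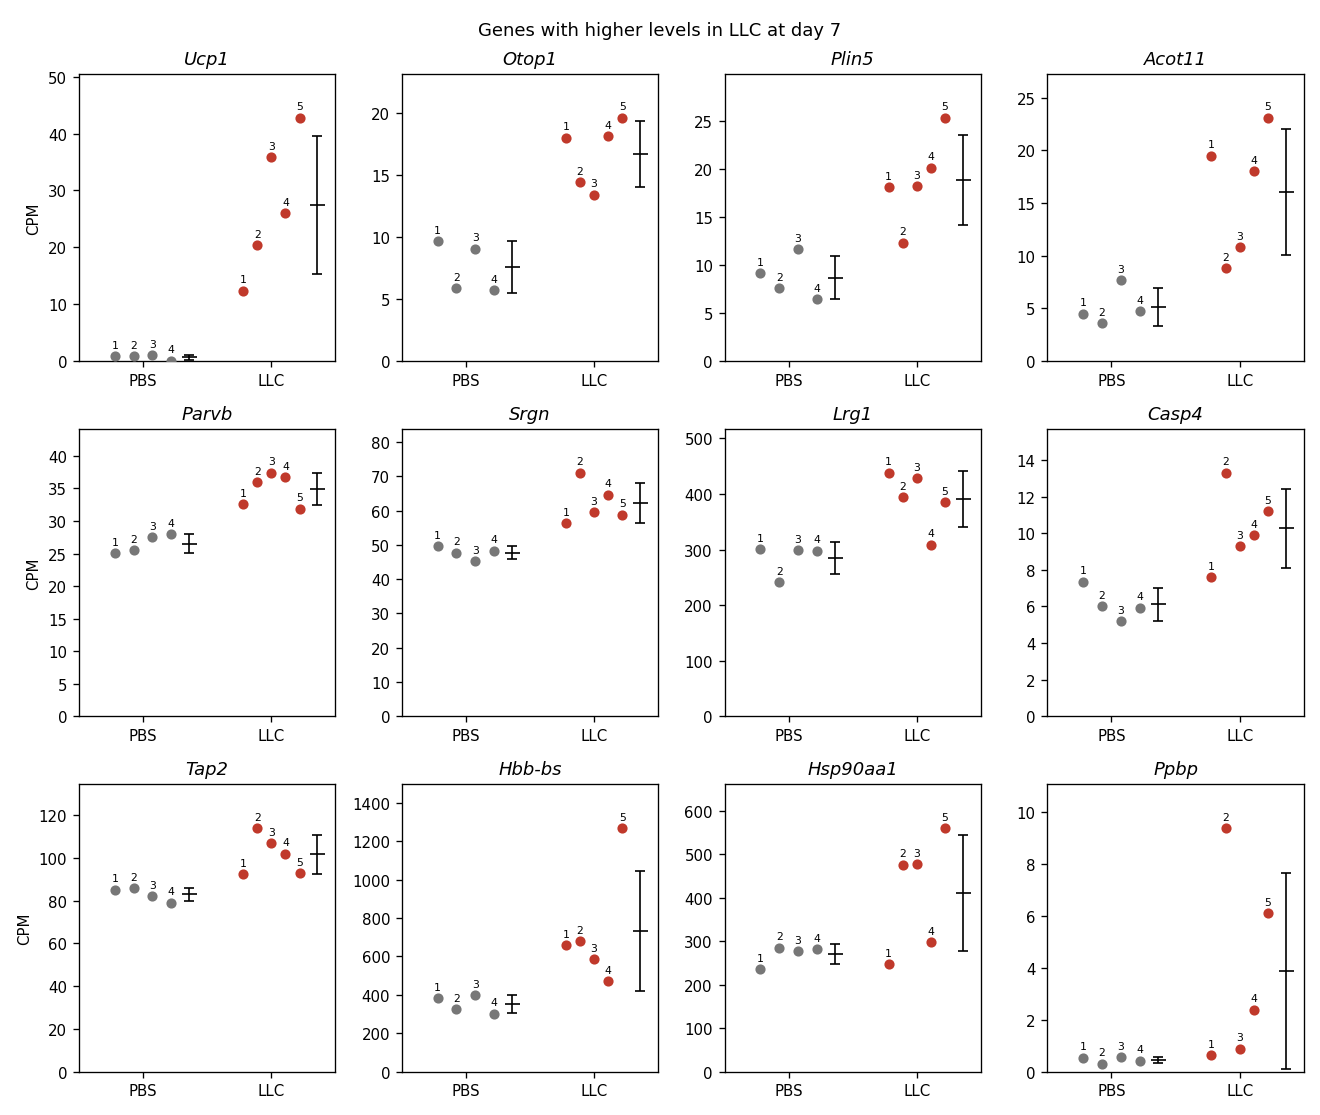
CPM (vertical axes, linear, from 0) of 12 genes in the 4 PBS libraries (grey) and the 5 LLC libraries (red) of day 7, with the library number above each point and the mean ± SD as a black bar. Ucp1, Otop1, Plin5 and Parvb show no overlap, whereas LLC library 1 lies among the controls for Hsp90aa1.

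Interferon-stimulated genes held the most DESeq2 calls of the 77 lists, 20, and serve as the base for the related lists. Of 52 tested members, 50 were higher, 46 at an unadjusted p under 0.05 against 4.86% of all genes, and the median log2 fold change was 0.76. Without LLC libraries 2 and 4 that median was 0.42. Isg15, a ubiquitin-like modifier, was at 6.90, 5.58, 4.93 and 5.47 CPM in the PBS libraries and 7.34, 21.9, 16, 23.1 and 18.4 CPM in the LLC libraries. Its level in LLC library 1 was close to the controls and the other 4 libraries lay well above them. Bst2, the tetherin that holds budding virus at the cell surface, was at 32.4, 28.9, 31.4 and 33.6 CPM in the PBS libraries and 39.7, 81.8, 58.8, 82.3 and 47.7 CPM in the LLC libraries, again with libraries 2 and 4 highest and library 1 lowest in LLC. Ifi44 had a log2 fold change of 1.55 ± 0.28, Ifit3b, a binder of viral RNA, of 0.84 ± 0.12, Rsad2, the antiviral enzyme viperin, of 0.76 ± 0.16 and Trim25, a ubiquitin ligase of RNA sensing, of 0.46 ± 0.10. The apolipoprotein L genes Apol9a and Apol9b followed, at 1.63 and 1.64, and the apoptosis factor Xaf1 at 0.75. Interferon-induced GTPases, which attack the vacuoles of intracellular parasites, included Igtp at 0.96 ± 0.23, while the very large GTPases Gvin1 and Gvin2 were at 1.00 ± 0.23 and 0.59 ± 0.13. These genes all passed DESeq2. Ifit3b, the Apol9 pair and the Gvin genes have near-identical copies, between which the counting program had to divide reads.

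The promoter windows of Isg15, Ifit3b and Bst2 are shown as examples of the interferon-stimulated genes. Part of the windows of such genes, counted below, hold a short element. Its part in their levels was not tested. Windows run from 250 bases before to 50 bases after the start, from RefSeq on GRCm38.p6, and capitals mark each match on either strand to GAAANNGAA, the core of the interferon response element. Overlapping matches merge into 1 run of capitals.
Isg15 (chr4:156200769-156201068, minus strand): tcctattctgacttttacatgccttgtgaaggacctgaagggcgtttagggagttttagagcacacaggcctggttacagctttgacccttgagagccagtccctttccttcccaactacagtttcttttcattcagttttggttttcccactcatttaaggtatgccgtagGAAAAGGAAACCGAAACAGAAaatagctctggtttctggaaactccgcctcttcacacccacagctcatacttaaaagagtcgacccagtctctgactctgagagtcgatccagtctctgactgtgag
Ifit3b (chr19:34607707-34608006, plus strand): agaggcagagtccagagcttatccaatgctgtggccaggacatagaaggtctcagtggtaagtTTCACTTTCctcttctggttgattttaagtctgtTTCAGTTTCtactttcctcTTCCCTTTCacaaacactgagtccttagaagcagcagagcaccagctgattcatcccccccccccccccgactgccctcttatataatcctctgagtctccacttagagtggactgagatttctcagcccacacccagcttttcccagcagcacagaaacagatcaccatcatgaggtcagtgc
Bst2 (chr8:71537423-71537722, minus strand): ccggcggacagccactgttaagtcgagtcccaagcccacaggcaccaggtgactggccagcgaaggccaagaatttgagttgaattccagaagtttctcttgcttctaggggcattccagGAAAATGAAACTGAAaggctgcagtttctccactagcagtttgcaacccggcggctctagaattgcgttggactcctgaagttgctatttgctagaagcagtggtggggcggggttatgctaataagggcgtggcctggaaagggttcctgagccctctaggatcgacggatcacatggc
The first match begins 78 bases before the start of Isg15, 187 before that of Ifit3b and 130 before that of Bst2. RefSeq windows were found for 38 of the 52 tested interferon-stimulated genes, and 26 of their 43 windows (60.5%) hold the element, against 2806 of all 32817 windows (8.55%). A match describes these letters and is not a measured binding site.

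Antigen presentation by MHC class I was higher as well. All 16 tested members were higher, 9 of them at an unadjusted p under 0.05, against 4.86% of all genes. The median log2 fold change was 0.25 (0.14 without LLC libraries 2 and 4). Tap2, a subunit of the peptide transporter of the endoplasmic reticulum, was at 85.1, 85.9, 82 and 79 CPM in the PBS libraries and 92.4, 114, 107, 102 and 93 CPM in the LLC libraries. The groups were separate and its log2 fold change was 0.29 ± 0.08, with a DESeq2 adjusted p of 0.0513, just outside the threshold. Tap1, its partner, ranged from 38.5 to 45.8 CPM in PBS and 46.9 to 82.7 CPM in LLC, and the immunoproteasome subunit Psmb9 from 18.9 to 25.3 CPM in PBS and 21.3 to 36.9 CPM in LLC. Among the class I chains, H2-T23 was at 0.56, H2-T22 at 0.27 and H2-Q7 at 0.48 on the log2 scale, with reads that are hard to assign between these similar genes. MHC class II showed no such shift, with 6 members higher, 6 lower and none of 12 under 0.05.

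In the list of cytosolic DNA and RNA sensing 29 of 31 genes were higher, 14 under an unadjusted 0.05, and the median was 0.28, or 0.13 without LLC libraries 2 and 4. Its 15 sensors had 14 higher, 8 under 0.05 and a median of 0.46. Zbp1, a sensor of Z-form nucleic acid, was at 14.4, 11, 13.3 and 18.8 CPM in the PBS libraries and 15.9, 42.4, 26.3, 47.7 and 22.7 CPM in the LLC libraries, and it was the 1 member that DESeq2 called (0.0347). Irf7, the factor that amplifies interferon production, had a log2 fold change of 1.02 ± 0.30. For Zbp1 and Irf7 LLC libraries 2 and 4 were highest and LLC library 1 lay within the control range.

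Chemokines and their receptors differed in a less even way. Of 36 tested, 31 were higher, and the median log2 fold change was 0.46. At an unadjusted p under 0.05, 15 were higher and none lower, against 4.86 and 3.64% of all genes. Ccl2, the main attractant of monocytes, was at 2.79, 2.31, 3.25 and 1.60 CPM in the PBS libraries and 1.69, 21.9, 4.76, 6.49 and 20.2 CPM in the LLC libraries. LLC libraries 2 and 5 were several times above the rest, while LLC library 1 lay within the control range. Ccl7, a neighbour with the same receptor, repeated this order at 3.25, 2.06, 4.56 and 3.68 CPM in the PBS libraries and 2.01, 33.4, 8.65, 9.49 and 29.8 CPM in the LLC libraries. Ccl12 had a log2 fold change of 1.51 ± 0.43, the neutrophil attractant Cxcl1 of 1.97 ± 0.65, and Ackr1, a chemokine-binding receptor of venules, of 0.56 ± 0.18. Ccr7, which guides dendritic cells and T cells to lymph nodes, had low counts but separate groups, from 0.250 to 0.546 CPM in PBS and 0.816 to 3.17 CPM in LLC. None of these 6 passed DESeq2. Neutrophil markers were uneven as well, with 6 of 15 abundant enough to test, 4 of them higher and 2 lower (4 and 1 at an unadjusted p under 0.05). S100a8 ranged from 0.0607 to 1.06 CPM in PBS and 0.383 to 6.39 CPM in LLC and S100a9 from 0 to 0.663 CPM in PBS and 0.188 to 9.90 CPM in LLC. Both were near the limit of detection in the controls and overlapped, and neither passed DESeq2. The 2 lower markers are not named here, and log2 fold changes of the 6 ran from -0.85 to 4.13. The summed level of all 15 was 23.5 to 45.6 CPM in PBS and 31.1 to 74.0 CPM in LLC. Markers of T and NK cells summed to 25.7 to 34.5 CPM in PBS and 29.0 to 50.5 CPM in LLC, and Cd8a, the co-receptor of cytotoxic T cells, ranged from 0.119 to 0.874 CPM in PBS and 0.548 to 1.82 CPM in LLC. The part of these cells in the chemokine values was not tested.

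Among acute-phase and cytokine response genes, DESeq2 called Lrg1 and Cebpb. Lrg1, a secreted glycoprotein induced by IL-6 family cytokines, was at 301, 241, 299 and 298 CPM in the PBS libraries and 438, 394, 428, 309 and 385 CPM in the LLC libraries. The groups were apart, though LLC library 4 exceeded the highest control by little, and Lrg1 passed DESeq2 (0.0288) with a log2 fold change of 0.46 ± 0.11. Cebpb, a transcription factor of both inflammation and adipocyte formation, passed as well (0.0436), with a range of 64.5 to 112 CPM in PBS and 109.6 to 159.5 CPM in LLC and LLC library 1 inside the control range. Bcl3, an atypical IκB protein, had a log2 fold change of 0.56 ± 0.17, Junb of 0.97 ± 0.32, the serum amyloid Saa3 of 2.25 ± 0.74 and the iron-chelator carrier Lcn2 of 2.02 ± 0.75, and these 4 did not pass. Over the whole list of 27, 17 were higher with a median of 0.15. For feedback genes of TNF and NF-kB, 33 of 34 were higher with a median of 0.19 and 7 under an unadjusted 0.05. Among cell death genes, Casp4, the sensor caspase of cytosolic lipopolysaccharide, was at 7.36, 6.01, 5.18 and 5.94 CPM in the PBS libraries and 7.59, 13.3, 9.31, 9.91 and 11.2 CPM in the LLC libraries and passed DESeq2 (0.0201), and the death ligand Tnfsf10 was at 0.56 ± 0.15 on the log2 scale. The whole list of p53 targets and apoptosis genes had 26 of 31 higher, 6 under an unadjusted 0.05 and none lower, with a median of 0.12, or 0.05 without LLC libraries 2 and 4. Genes induced by glucocorticoids were higher in 17 of 21 cases, 7 of them and 1 lower gene under 0.05, with a median of 0.23, or 0.11 without the same libraries. Their scores ran from -0.44 to -0.02 in PBS and -0.30 to 0.49 in LLC, with LLC library 1 within the control range.

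**Figure D2:**
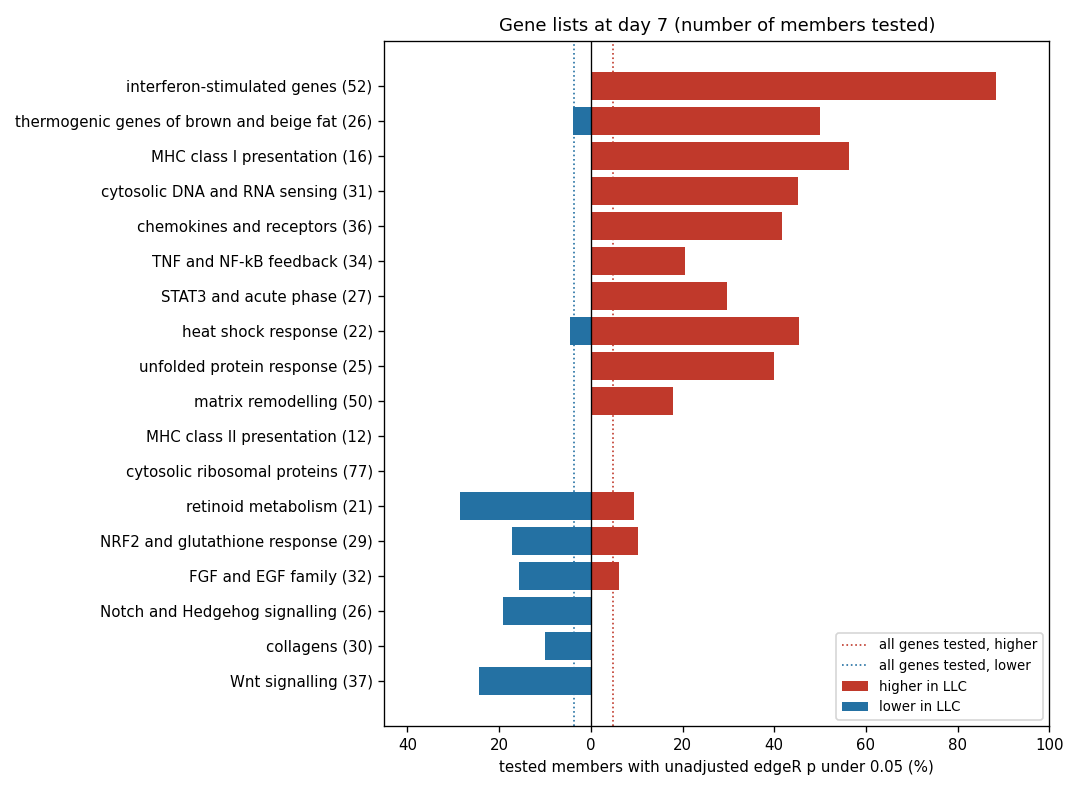
Percentage of the tested members of 18 gene lists (number tested in parentheses) with an unadjusted edgeR p under 0.05, drawn to the right for genes higher in LLC and to the left for genes lower in LLC; dotted lines give the same shares of all genes tested, 4.86% and 3.64%. Interferon-stimulated genes extend farthest to the right, and the Wnt, collagen and Notch and Hedgehog lists extend to the left only.

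Protein folding genes formed a further group, with no single member past a threshold. In the heat shock list 19 of 22 members were higher, with a median log2 fold change of 0.37. Under an unadjusted 0.05, 10 were higher and 1 lower, against 4.86 and 3.64% of all genes. Hsp90aa1, the inducible cytosolic HSP90, was at 236, 285, 277 and 282 CPM in the PBS libraries and 247, 476, 477, 297 and 560.4 CPM in the LLC libraries. LLC libraries 2, 3 and 5 lay far above the controls and LLC libraries 1 and 4 close to them. Hspe1, the mitochondrial chaperonin partner, showed the same split at 55.2, 51.8, 50.8 and 47.5 CPM in the PBS libraries and 50.1, 80.7, 78.2, 54.2 and 87.6 CPM in the LLC libraries, as did Ahsa1, an activator of HSP90, at 57.6 to 65.9 CPM in PBS and 57.7 to 97.3 CPM in LLC. The lower member was Cryab, a small heat shock protein of muscle and fat, at -0.26 ± 0.10. List scores were -0.35, -0.15, -0.02 and -0.11 in the PBS libraries and -0.33, 0.34, 0.38, -0.11 and 0.35 in the LLC libraries. Chaperones of the endoplasmic reticulum were higher too: 15 of 15 were higher, 10 of them under an unadjusted 0.05, while 3 stress sensors had a median of 0.04. Pdia6, a disulfide isomerase, had a log2 fold change of 0.33 ± 0.10, the secreted protective factor Manf of 0.45 ± 0.14, Hspa5, the chaperone BiP, of 0.34 ± 0.13 and Hsp90b1 of 0.33 ± 0.12. In each of these 4 LLC library 1 lay within the control range.

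The promoter window of Hspe1 is printed as an example of the heat shock list, with capitals for GAANNTTC, the core of the heat shock element, on either strand.
Hspe1 (chr1:55087898-55088197, plus strand): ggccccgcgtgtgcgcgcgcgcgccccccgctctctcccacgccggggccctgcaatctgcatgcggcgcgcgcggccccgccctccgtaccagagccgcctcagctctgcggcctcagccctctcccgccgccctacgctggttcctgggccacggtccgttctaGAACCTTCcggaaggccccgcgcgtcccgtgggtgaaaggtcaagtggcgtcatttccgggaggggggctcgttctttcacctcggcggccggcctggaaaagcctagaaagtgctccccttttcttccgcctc
The match begins 84 bases before the start. The element is in 13 of the 24 windows (54.2%) found for 17 of the 22 heat shock genes, against 2579 of 32817 windows in all (7.86%). Such a share was not confined to lists that were higher. For the clock genes described below, with a median log2 fold change of -0.11, the E-box CACGTG is in 6 of 21 windows (28.6%). Among all windows 2346 (7.15%) hold it. The part of these elements in the levels was not tested.

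The lower genes that DESeq2 called include the developmental transcription factors Dmrt2, Plagl1 and Zfp503. Dmrt2, a doublesex-related factor at chr19:25672411-25678991, plus strand, was at 52.1, 54.6, 57.3 and 45.9 CPM in the PBS libraries and 26.3, 20.8, 27.5, 31.5 and 37.9 CPM in the LLC libraries. All LLC libraries were below all controls, the means were 52.5 ± 4.84 and 28.8 ± 6.36 CPM, and the log2 fold change was -0.87 ± 0.15 with a DESeq2 adjusted p of 0.000143. Plagl1, an imprinted zinc finger factor at chr10:13060504-13131694, plus strand, was at 46.8, 55.8, 42.1 and 48.7 CPM in the PBS libraries and 33.3, 26.7, 22.7, 31.6 and 15.5 CPM in the LLC libraries, with LLC library 5 lowest. Zfp503, a zinc finger repressor at chr14:21983959-21989601, minus strand, was at 42.6, 57.1, 69.9 and 57.4 CPM in the PBS libraries and 35.6, 38.7, 40.9, 41.7 and 38.8 CPM in the LLC libraries, and its groups were separate by a narrow margin. Plagl1 and Zfp503 passed DESeq2 at 0.00564 and 0.0186. Shox2, a homeobox factor, was separate as well (-0.36 ± 0.09) but did not pass (0.0580). The list of DMRT, KLF, CEBP, homeobox and T-box factors as a whole was split, with 15 of 31 higher and a median of -0.05.

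**Figure D3:**
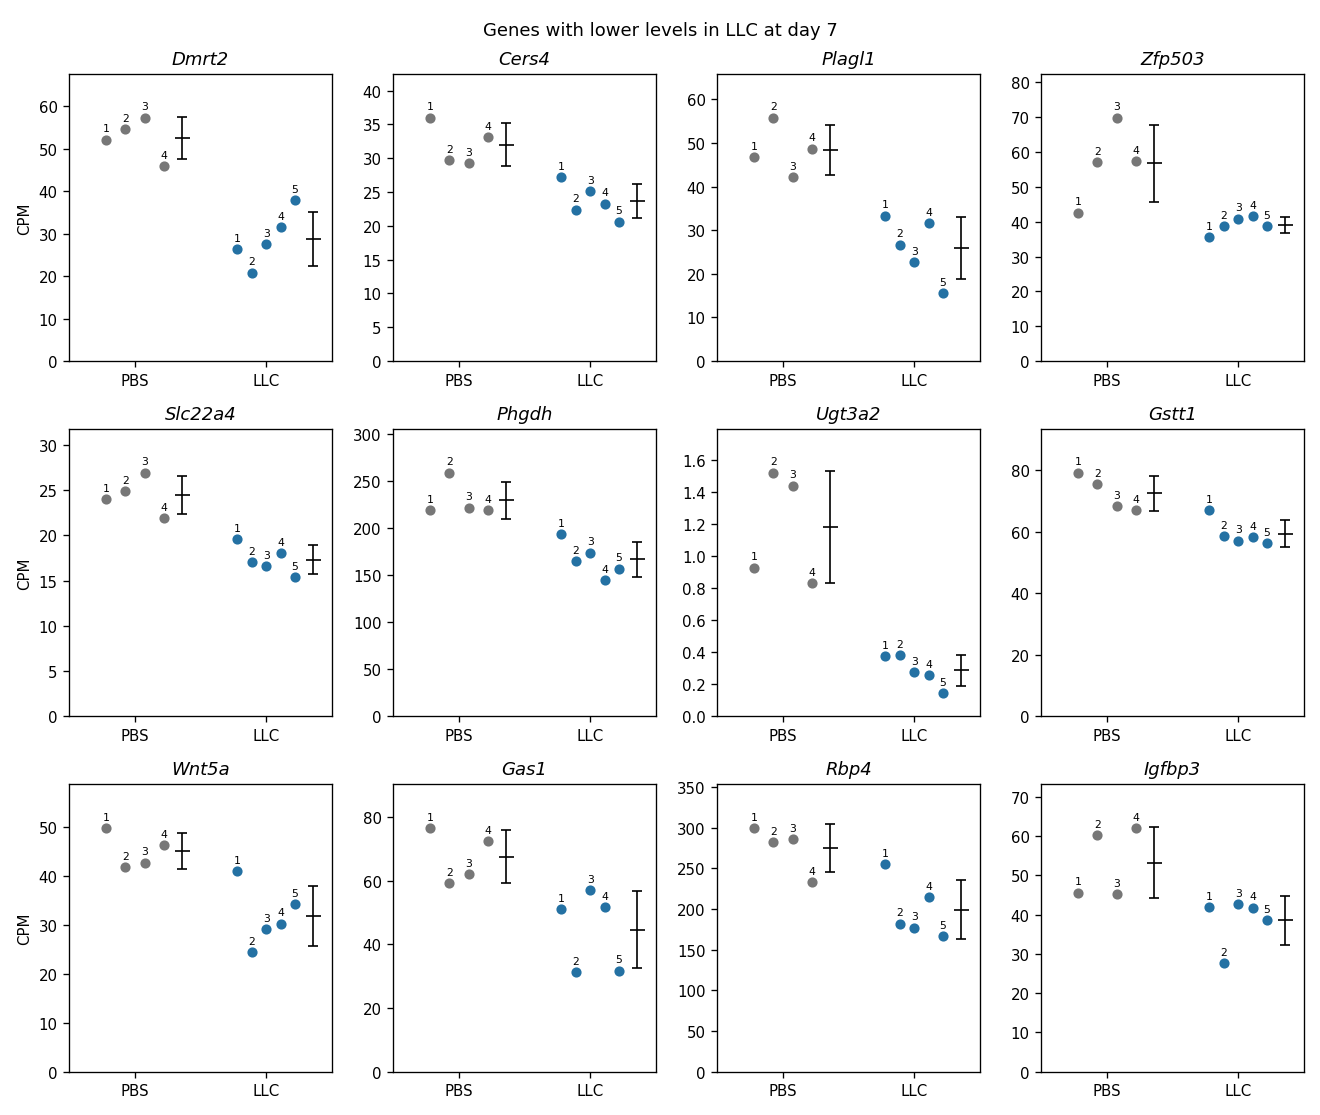
CPM (vertical axes, linear, from 0) of 12 genes in the PBS (grey) and LLC (blue) libraries of day 7, numbered, with mean ± SD as black bars. Dmrt2, Cers4, Plagl1, Zfp503, Slc22a4, Phgdh, Ugt3a2, Gstt1, Wnt5a, Gas1 and Igfbp3 are lower in every LLC library than in any PBS library, and Rbp4 overlaps.

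Other lower genes with a DESeq2 call were the transporter Slc22a4 and the conjugating enzymes Ugt3a2 and Ugt1a6b. Slc22a4, a carrier of organic cations and ergothioneine at chr11:53983123-54028090, minus strand, was at 24, 24.9, 26.9 and 21.9 CPM in the PBS libraries and 19.6, 17, 16.6, 18 and 15.4 CPM in the LLC libraries. Groups were separate and the log2 fold change was -0.50 ± 0.09 with a DESeq2 adjusted p of 0.00298. Of 9 tested members of that family, 7 were lower, among them Slc22a18 at -0.49 ± 0.18, and the median was -0.24. Ugt3a2, a sugar-conjugating enzyme, was scarce but lower in every LLC library, at 0.928, 1.52, 1.44 and 0.832 CPM in the PBS libraries and 0.377, 0.382, 0.274, 0.259 and 0.144 CPM in the LLC libraries. Ugt1a6b ranged from 26.9 to 32.4 CPM in PBS and 18.2 to 25 CPM in LLC, and its reads overlap those of the other genes of the Ugt1a cluster. Both passed DESeq2 (0.00732 and 0.00977). The list of this family holds Ugt3a2 but not Ugt1a6b. Of its 6 glucuronosyltransferases tested, 3 were higher and 3 lower (median -0.03). With the sulfotransferases 4 of 10 were higher (median -0.05). The phenol sulfotransferase Sult1a1 overlapped, at 246, 312, 245 and 245 CPM in the PBS libraries and 219, 217, 203, 246 and 186 CPM in the LLC libraries.

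Glutathione transferases, which attach glutathione to reactive compounds, were lower as a family, 12 of 13, with 5 under an unadjusted 0.05 and a median log2 fold change of -0.20. Gstt1 was at 79.2, 75.5, 68.4 and 67.1 CPM in the PBS libraries and 67, 58.6, 57.1, 58.3 and 56.3 CPM in the LLC libraries, and its groups were separate. Gstm2, Gsta3, Gstt3 and Gstm1 had log2 fold changes of -0.35, -0.44, -0.40 and -0.25, and no transferase passed DESeq2. The quinone and heme enzymes of the same NRF2 list went the other way, with 5 of 5 higher and a median of 0.23.

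Serine synthesis was represented by its first enzyme. Phgdh, at chr3:98313170-98339990, minus strand, was at 219, 259, 222 and 219 CPM in the PBS libraries and 194, 165, 174, 145 and 157 CPM in the LLC libraries, with separate groups, a log2 fold change of -0.46 ± 0.09 and a DESeq2 adjusted p of 0.00481. The 22 tested members of serine and one-carbon metabolism had a median of -0.05, so the list as a whole lay near all genes. Lower too, each with separate groups and past DESeq2, were the ceramide synthase Cers4 (-0.43 ± 0.10), the esterase Bche (-0.40 ± 0.10), the engulfment adaptor Elmo3 (-0.76 ± 0.17) and the teneurin Tenm4 (-0.34 ± 0.07). The same held for Chst1, a sulfotransferase of keratan sulfate (-0.45 ± 0.11), and for Sobp and Vsig10l (-0.78 ± 0.19 and -0.63 ± 0.14).

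Retinoid metabolism genes shared no direction, with 10 of 21 higher and 11 lower. Rbp4, the carrier of retinol, was at 299.7, 282, 286 and 233 CPM in the PBS libraries and 255, 182, 177, 215 and 167 CPM in the LLC libraries, with 4 of 5 LLC libraries below every control. Adh1, an alcohol dehydrogenase acting on retinol, had a log2 fold change of -0.26 ± 0.09, the retinaldehyde dehydrogenases Aldh1a1 and Aldh1a3 of -0.35 ± 0.14 and -0.63 ± 0.25, and the receptor Rxrg of -0.36 ± 0.13. Aldh1a2, another retinaldehyde dehydrogenase, was higher instead, at 2.92, 5.58, 4.56 and 6.18 CPM in the PBS libraries and 6.34, 9.77, 13.3, 7.00 and 6.24 CPM in the LLC libraries, as was Cyp26b1, which degrades retinoic acid (0.63 ± 0.27). In this list 2 were higher and 6 lower at an unadjusted p under 0.05, against 4.86 and 3.64% of all genes, and none passed DESeq2.

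Wnt signalling genes were lower as a list. Of 37 tested members 30 were lower, with a median log2 fold change of -0.21. Under an unadjusted 0.05, 9 were lower, against 3.64% of all genes, and no member was higher. Wnt5a, a ligand of the non-canonical branch, was at 49.7, 41.7, 42.6 and 46.2 CPM in the PBS libraries and 40.9, 24.4, 29, 30.2 and 34.1 CPM in the LLC libraries, and all LLC libraries lay below the controls. Wnt5b and Wnt11, further ligands, were at -0.98 ± 0.36 and -0.50 ± 0.22. Secreted antagonists were lower along with the ligands: Sfrp1 was at -0.51 ± 0.19 and Dkk2 at -0.85 ± 0.32. Axin2, a feedback target of canonical signalling, was at -0.47 ± 0.20. By role, 7 of 8 ligands, 7 of 8 antagonists and 12 of 15 receptors were lower. No member passed DESeq2. The Wnt scores overlapped, at 0.29, 0.16, -0.02 and 0.16 in the PBS libraries and 0.01, -0.28, 0.03, 0.02 and -0.37 in the LLC libraries. LLC libraries 2 and 5 were lowest.

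Hedgehog co-receptors showed the same direction. Gas1, which binds Hedgehog ligands, was at 76.5, 59.2, 62.1 and 72.4 CPM in the PBS libraries and 51, 31.3, 56.9, 51.7 and 31.7 CPM in the LLC libraries, with no overlap. Cdon and Boc, its partners on the receiving cell, had log2 fold changes of -0.51 ± 0.15 and -0.32 ± 0.13, and 8 of 10 Hedgehog genes were lower. Fibroblast growth factors were lower in 6 of 8 cases, including Fgf2 (-0.38 ± 0.12), Fgf7 (-0.42 ± 0.14) and Fgf13 (-0.92 ± 0.28). The whole list of the FGF and EGF family was split, with 17 of 32 higher and a median of 0.07. Its feedback genes went the other way from the ligands, with 8 of 9 higher and a median of 0.17. Of 6 binding proteins of insulin-like growth factors 4 were lower, among them Igfbp3 and Igfbp4 with separate groups, at -0.47 ± 0.14 and -0.29 ± 0.10. Targets of growth hormone signalling varied among the LLC libraries. Cish, a feedback inhibitor of STAT5, was at 4.97, 8.19, 13.7 and 8.79 CPM in the PBS libraries and 48.8, 17.7, 129.7, 4.67 and 17.7 CPM in the LLC libraries, with LLC library 3 highest and LLC library 4 below every control. Socs2, a related inhibitor, had a log2 fold change of 0.76 ± 0.30. No gene named in this paragraph passed DESeq2.

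Stromal cells are known to make many of these signals, and markers of such cells differed unevenly. In the list of progenitor and fibroblast markers, 15 of 20 were lower, with a median of -0.16 that became -0.03 without LLC library 5. At an unadjusted p under 0.05, 3 were higher and 1 lower. Their scores overlapped, at 0.08, 0.08, 0.01 and 0.23 in the PBS libraries and 0.03, -0.14, 0.17, 0.22 and -0.69 in the LLC libraries. Their summed level was 3784 to 5516 CPM in PBS and 2187 to 5034 CPM in LLC. The Wnt median was -0.16 without that library. Among the collagens 23 of 30 were lower with a median of -0.19, or -0.07 without LLC library 5. Col4a3, a basement membrane chain, was at 3.51, 3.82, 5.37 and 5.11 CPM in the PBS libraries and 3.45, 2.29, 2.19, 2.91 and 1.36 CPM in the LLC libraries, Col15a1 had a log2 fold change of -0.48 ± 0.17 and Col5a3 of -0.37 ± 0.16. Dcn, the abundant matrix proteoglycan decorin, ranged from 1360 to 2016 CPM in PBS and 874 to 1629 CPM in LLC. The matrix protein Smoc2 ranged from 94.2 to 119 CPM in PBS and 51 to 103 CPM in LLC. Both belong to the progenitor and fibroblast list, where Smoc2 is the 1 member lower at an unadjusted p under 0.05. The 3 members higher at that p are not named here, and log2 fold changes in the list ran from -0.53 to 0.44. The part of stromal content in the Wnt, Hedgehog and collagen values was not tested.

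Matrix remodelling genes were split, 20 of 50 higher, but the 9 members under an unadjusted 0.05 were all higher. Spp1, the cytokine osteopontin, was at 9.81, 10.3, 5.62 and 7.49 CPM in the PBS libraries and 9.41, 49.3, 9.47, 44.4 and 31.5 CPM in the LLC libraries. Its log2 fold change was 1.80 ± 0.51 and that of the matricellular protein Thbs1 1.65 ± 0.54, in both cases with LLC libraries 2, 4 and 5 highest. The lysyl hydroxylase Plod2 was at 0.54 ± 0.15. None of these 3 passed DESeq2, and the 50 members of the list had a median of -0.05. Metallothioneins, which bind zinc and copper, were also uneven: Mt2 was at 23.4, 33, 30.9 and 20.7 CPM in the PBS libraries and 21.7, 72.1, 39.5, 64.4 and 73.8 CPM in the LLC libraries, and Mt1 had a log2 fold change of 0.37 ± 0.15.

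**Figure D4:**
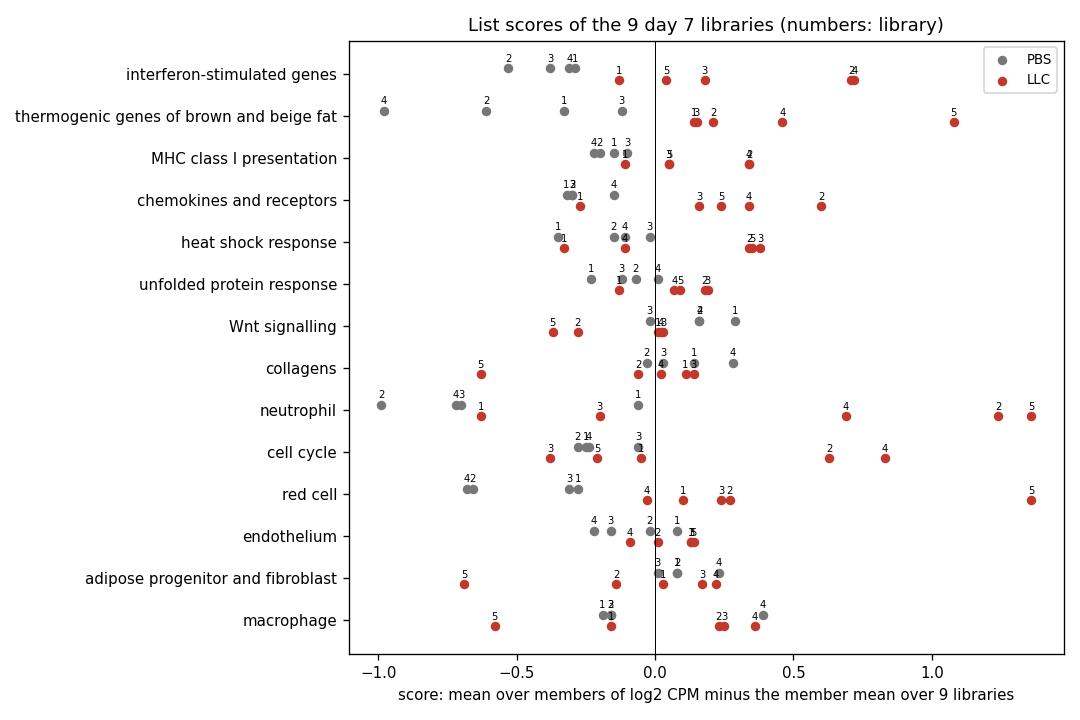
Scores (horizontal axis, log2 units) of 14 lists in each PBS (grey) and LLC (red) library, numbered by library; a score of 0 is the mean over the 9 libraries. Interferon scores are highest in LLC libraries 2 and 4, the heat shock score is high in LLC libraries 2, 3 and 5, and LLC library 5 has the lowest collagen, progenitor and macrophage scores and the highest red cell score.

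All 8 red cell genes tested were higher, and 5 of them had separate groups, against 1.20% of all genes. Hbb-bs, a beta globin, was at 381, 324, 397 and 301 CPM in the PBS libraries and 657, 680.0, 586, 471 and 1269 CPM in the LLC libraries, Hba-a1, an alpha globin, ranged from 195 to 264 CPM in PBS and 287 to 699 CPM in LLC and Alas2, the erythroid enzyme of heme synthesis, from 8.25 to 12.6 CPM in PBS and 17.5 to 47.8 CPM in LLC. The sister copies, Hba-a2 and Hbb-bt, were at 0.92 ± 0.24 and 1.09 ± 0.29. Each of the 5 passed DESeq2, at 0.00713 for Hbb-bs, LLC library 5 was highest in all of them, and the median of the 8 markers was 0.99, or 0.70 without that library. Globin copies are nearly identical, so single copies are uncertain. Ppbp, a chemokine stored in platelets, was at 0.530, 0.303, 0.562 and 0.416 CPM in the PBS libraries and 0.628, 9.39, 0.876, 2.39 and 6.10 CPM in the LLC libraries, with LLC libraries 1 and 3 near the controls, and it passed DESeq2 (0.00713). Pf4, another platelet chemokine that macrophages also make, overlapped (0.57 ± 0.23). Endothelial markers were higher in 14 of 16 cases with a median of 0.16. Pecam1, an endothelial adhesion molecule, had a log2 fold change of 0.27 ± 0.10 and the clotting factor Vwf of 0.32 ± 0.12. The part of retained blood in these values was not tested.

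Further genes that DESeq2 called, of varied function and each with separate groups, were higher. Parvb, a parvin that links integrins to actin, at chr15:84232043-84315688, plus strand, was at 25.1, 25.5, 27.5 and 28 CPM in the PBS libraries and 32.6, 36, 37.4, 36.7 and 31.9 CPM in the LLC libraries, and all LLC libraries lay above all controls. Its log2 fold change was 0.40 ± 0.07 with a DESeq2 adjusted p of 0.00469. Tpm4, a tropomyosin, was at 167, 151, 139 and 171 CPM in the PBS libraries and 201, 198, 188, 196 and 199 CPM in the LLC libraries, and Enc1, an actin-binding kelch protein, had a log2 fold change of 0.80 ± 0.16. Srgn, the proteoglycan core of secretory granules, was at 49.7, 47.7, 45.2 and 48.3 CPM in the PBS libraries and 56.4, 71, 59.6, 64.6 and 58.8 CPM in the LLC libraries, and B3gnt3, a glycosyltransferase, differed by 0.36 ± 0.07 on the log2 scale. Tent5c, a poly(A) polymerase, was at 0.87 ± 0.19, the protease inhibitor Ctla2a at 0.60 ± 0.13 and the semaphorin Sema7a at 0.46 ± 0.10. Rad54b, a DNA repair helicase, was scarce but separate, from 0.199 to 0.416 CPM in PBS and 0.767 to 1.36 CPM in LLC. DESeq2 called all of these 9 genes. All 30 cell cycle genes tested were higher, with a median of 0.46 that was 0.06 without LLC libraries 2 and 4. Top2a, a topoisomerase of dividing cells, showed this at 7.82, 6.74, 8.43 and 7.13 CPM in the PBS libraries and 8.97, 18.5, 7.67, 23.3 and 8.11 CPM in the LLC libraries, whereas the replication helicase subunit Mcm6 had separate groups and a log2 fold change of 0.37 ± 0.11. Immediate early genes had a median of 0.62, or 0.14 without the same libraries.

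Core and output genes of the clock were lower in 15 of 19 cases and 2 of these passed an unadjusted 0.05. They include Tef (-0.31 ± 0.09), a rhythmic transcription factor, and the clock repressor Cry2 (-0.29 ± 0.12), with overlap in both. By role, 9 of 12 core genes (median -0.07) and 6 of 7 output genes (median -0.31) were lower. The median of all 19 was -0.11, or -0.02 without both libraries numbered 3, and the hour of sampling is not given in the labels.

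No member of the tricarboxylic acid cycle, of branched-chain amino acid breakdown or of the cytosolic ribosomal proteins reached an unadjusted p under 0.05. Their median log2 fold changes were 0.05, 0.04 and 0.08, although 72 of 77 ribosomal protein genes had a value above 0. Complement genes were split evenly, 10 higher and 10 lower. Peroxisomal genes had a median of -0.04 and adipocyte markers, 15 of 20 of them lower, of -0.08. Macrophage markers had a median of 0.07 and summed to 6642 to 8899 CPM in PBS and 7700 to 8365 CPM in LLC.

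Whether the tumour effect differed between day 7 and day 21 was tested in 1 edgeR fit of all 18 libraries, in which each day has its own controls. That difference had an adjusted p under 0.05 for 58 of 13975 genes, or 0.415%. Among them are 6 of the genes named here, which were selected with values seen, so their number is not read against that share. Otop1 was at 1.13 at day 7 and -2.65 at day 21 on the log2 scale (edgeR adjusted p of the difference 0.0440), and Acot11 at 1.64 and -1.75 (0.0420). Tap2 also had opposite signs, 0.29 and -0.37 (0.0292). Plagl1 was lower at day 7 (-0.90) and higher at day 21 (0.85), and so was Igfbp3 (-0.47 and 3.16), with adjusted p-values of the difference of 0.0415 and 0.0342 in edgeR. Vwf was higher at both days, by 0.32 and 2.41 (0.0415). For Ucp1 the values were 5.27 and -2.13, and the difference missed the threshold (0.0571 in edgeR).

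**Figure D5:**
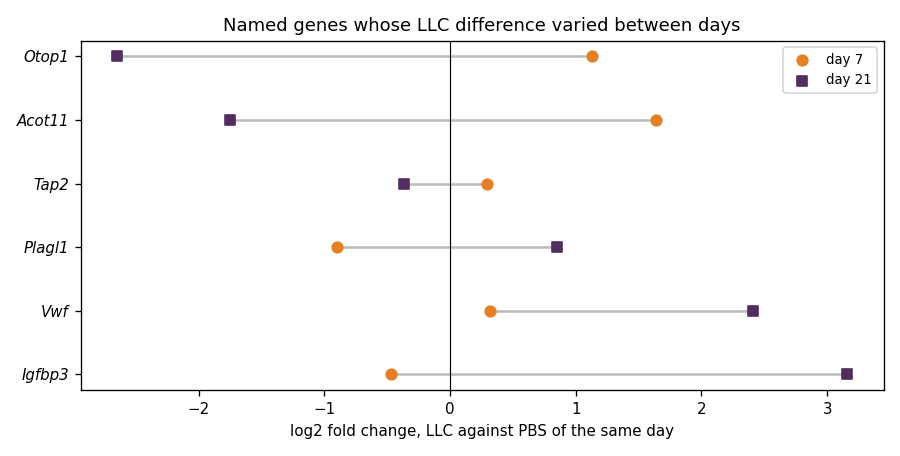
Log2 fold change of LLC against PBS of the same day (horizontal axis) at day 7 (orange circles) and day 21 (purple squares), from 1 fit of all 18 libraries, for the 6 named genes whose difference between days passed the threshold. Otop1, Acot11 and Tap2 are above 0 at day 7 and below it at day 21, Plagl1 and Igfbp3 the reverse, and Vwf is above 0 at both.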

How the data were processed

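Poly(A) RNA of inguinal fat was sequenced from 9 day 7 samples. Per the submitters' processing notes, reads were trimmed with fastp 0.23.0 and quantified with RSEM on mm10/GRCm38. The deposited table holds expected counts as whole numbers, TPM, the authors' mean TPM, and their log2 fold change, p-value and FDR. No source used names the aligner or the tool behind those p-values. Of 21899 gene IDs, 21806 were matched to GENCODE M21.

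Genes kept by filterByExpr were scaled by TMM and tested with edgeR 4.0.16 (quasi-likelihood, R 4.3.3), with Benjamini-Hochberg adjustment at 0.05, in the 9 libraries alone. DESeq2 1.42.0 and limma 3.58.1 were alternatives. The edgeR test was checked on simulated counts that gave every gene the same spread and held no outlying libraries. That check does not cover the uneven libraries of these data. CPM are TMM-scaled, and scores use a prior count of 2. Expression levels are compared between libraries, not between genes.

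The comparison, the 77 gene lists and the named genes were chosen with earlier results of these data known. The naming rule allowed Otop1, Ucp1, edgeR calls, the 15 higher and 15 lower genes of smallest edgeR p with separate groups and at least 1 CPM, 20 further DESeq2 calls, 6 members of each list by smallest p, and any member of a list of 12 or a role of 6 or fewer. Of the genes it allowed, 137 are named, selected with their values seen, and a few are not reported here. Counting error bounds the precision of low genes.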

Additional observations from a re-analysis of the deposited data

Results flagged for a closer look

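Among 360 groups of 4 or 5 libraries examined, over the 137 named genes and the 43 lists described, 29 held 1 library far from the others, where chance gives about 1 in 20. The named genes were selected with their values seen, so that share describes these genes only.

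LLC library 5 was the most frequent. It stood above the other LLC libraries for the red cell genes Alas2 (47.8 CPM), Hbb-bs (1269 CPM), Hbb-bt (209.7 CPM) and Hba-a2 (977 CPM), for the red cell score (1.36), for Pecam1 (332 CPM) and for Angptl4 (523 CPM). Shox2 was set apart there at 20.4 CPM. Its scores were far below the others for collagens (-0.63) and for UDP-glucuronosyltransferases and sulfotransferases (-0.49). LLC library 1 stood apart in Gstt1 (67.0 CPM) and Hsp90b1 (427 CPM), and LLC library 2 in Igfbp3 (27.7 CPM).

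The skeletal muscle signal set both libraries numbered 3 apart. Acta1 reached 1420 CPM in PBS library 3 and 394 CPM in LLC library 3, and the muscle score was 6.13 in PBS library 3. That library also stood apart in Gvin2 (192 CPM) and in the cell cycle score (-0.06).

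Among the other controls, PBS library 1 was low in Hsp90aa1 (236 CPM) and high in the score of adipokines and secreted regulators (0.26). PBS library 2 was low in Lrg1 (241 CPM) and high in Phgdh (259 CPM) and Sult1a1 (312 CPM). PBS library 4 was apart in Ucp1 (0.0594 CPM), Tef (152 CPM) and Tenm4 (211 CPM), and in the scores of nucleic acid sensing (0.05), chemokines (-0.15) and macrophages (0.39).

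The tumour effect differed between days for 6 named genes by the edgeR test of the difference itself, adjusted over all genes. The day 7 minus day 21 difference in log2 fold change was 3.78 for Otop1, 3.39 for Acot11, 0.66 for Tap2, -1.75 for Plagl1, -2.10 for Vwf and -3.63 for Igfbp3.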

How the results depend on the processing

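The count of genes past the threshold, 1 in edgeR, was 80 in DESeq2 and 0 in limma-voom, which had 1076 genes at an unadjusted p under 0.05. It was 0 without both libraries numbered 3 (948 at an unadjusted p under 0.05), 0 without LLC libraries 2 and 4 together, an alternative chosen after seeing the data (768), and 0 in 1 fit of all 18 libraries (389). Leaving out single libraries gave 0 to 3 calls. The 0 arose without PBS library 1, 2 or 3 (962, 800 and 964 at an unadjusted p under 0.05). The 3 were Ucp1, Isg15 and Ifi44 without LLC library 1, and Ucp1, Ifit3b and the lower Dmrt2 without LLC library 5. DESeq2 size factors, upper quartile scaling, both other filters, the robust estimate, the newer quasi-likelihood estimate (also added after seeing the data) and limma on TPM each gave 1. The legacy estimate listed as an alternative is the default of this edgeR version and so was the fit reported. With the replicate number as a block, which drops LLC library 5, the count was 1. Same-numbered libraries correlated at 0.152, -0.0235, 0.189 and 0.244 in their deviations, and unlike-numbered ones at -0.18 to 0.146. The pairs numbered 1, 3 and 4 lay above every unlike-numbered pair, and the pair numbered 2 did not. The labels state no pairing, so the fit reported has none. Whether the numbers mark a pairing or a batch is not known.

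Of 3140 values of the 137 named genes under alternatives, 1 reversed: Acta1, at 2.44 without PBS library 3 (-4.78 without LLC library 3). A further 56 passed the threshold, 52 of them in DESeq2, and 7 no longer passed it, all of Ucp1. Of 516 list medians 16 moved beyond the spread, and the skeletal muscle median ranged from -5.52 to 3.09 when single libraries were left out. Depth limits genes under about 1 CPM, such as Ugt3a2 in LLC, and 4 against 5 libraries limits every p.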
